A study of Mus musculus with 6 samples.

Results

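The miR-221 and miR-222 pair consists of 4 mature miRNAs, both arms of the Mir221 and Mir222 hairpins, which lie side by side on the mouse X chromosome. The members were taken by name from the deposited miRNA table, in which each of the 4 occurs once among 1907 distinct miRNAs. They were measured by small RNA sequencing of liver from 3 female and 3 male C57BL/6N mice, aged 12 weeks, in normal health and on a chow diet. The labels state no allele or treatment for any of the 6 animals, and the series' design note calls them littermates without saying which shared a litter. The series title names SAB, a protein of the outer mitochondrial membrane, and sex-dependent acute liver injury. The comparison open to the pair is therefore that of female with male liver before any injury.

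A miRNA guides a silencing complex to messenger RNAs through its seed, the bases next to its 5′ end. A hairpin precursor is cut into a duplex, one arm of which is usually kept in the complex while the other is degraded. The 3p arms of miR-221 and miR-222 share a seed and are known to repress the cell cycle inhibitor Cdkn1b, the receptor Kit and the metalloproteinase inhibitor Timp3. In liver they are known for high levels in hepatocellular carcinoma, and in hepatic stellate cells as these become activated during fibrosis. Vascular endothelium and stromal cells are other known sources.

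The sequences show how close the members are. RefSeq (GRCm38.p6) held the mature sequence of 3 of the 4 arms, and these are printed 5′ to 3′ with the seed, bases 2 to 8, in capitals, together with miR-1928, the only other miRNA with the 3p seed among the 1623 of the 1907 that have a RefSeq mature entry.
miR-221-3p: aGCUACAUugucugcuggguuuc
miR-222-3p: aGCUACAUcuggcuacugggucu
miR-221-5p: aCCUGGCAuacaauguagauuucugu
miR-1928: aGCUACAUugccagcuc

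The 3p arms of the pair had the same first 8 bases, and 11 of their 23 positions held the same base (47.8%). This comparison allowed no gaps, so bases shared at shifted positions were not counted as the same. The seed of miR-221-5p was a different one. At its deposited position the miR-222-5p arm began with u and had the seed CAGUAGC, which no other member had. miR-1928, which shared its first 10 bases with miR-221-3p, had a count of 0 in all 6 libraries, which allows a level of up to 0.191 to 0.855 CPM (3 counts of a library; CPM is counts scaled to 1000000). Among these 1623 miRNAs, all counts with the GCUACAU seed were thus those of miR-221-3p and miR-222-3p.

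Both hairpins are shown with the deposited arms in capitals, the 5p arm first, because the arms carry very unequal counts.
Mir221: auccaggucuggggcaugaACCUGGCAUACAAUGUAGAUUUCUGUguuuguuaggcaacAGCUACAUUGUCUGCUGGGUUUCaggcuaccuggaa
Mir222: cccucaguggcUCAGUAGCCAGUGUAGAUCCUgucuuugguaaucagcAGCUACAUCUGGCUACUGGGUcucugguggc

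On the minus strand of chromosome X (mm10), Mir221 spans 19146294 to 19146388 and Mir222 spans 19146893 to 19146971, with 504 bases between them. By GENCODE M21, which annotates the same build, 0 other genes overlap the 678 bases that hold the pair. The nearest annotated genes were Gm14636, a noncoding transcript 10009 bases away on the same strand, and the pseudogene Gm5383, 203065 bases away. The nearest protein-coding genes, Tex13c3 and 4930578C19Rik, lay 332448 and 684896 bases away. The pair is thus neither intronic nor exonic in any annotated gene. The deposited arms were miR-221-3p at 19146307 to 19146329, miR-221-5p at 19146344 to 19146369, miR-222-3p at 19146903 to 19146923 and miR-222-5p at 19146940 to 19146960. The deposited miR-222-3p covers 21 bases and the RefSeq entry 23, with the 2 further bases at the 3′ end.

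Female libraries held 3285249 to 5756418 counts and male libraries 4617647 to 16444674. The hepatocyte miRNA miR-122-5p and the injury-linked miR-21a-5p together took 39.3 to 40.3% of the counts in females and 42.9 to 45% in males. TMM scaling, which sets the bulk of the miRNAs level between libraries, multiplied library sizes by 1.03 to 1.068 in females and by 0.917 to 0.983 in males. The 7 tested hepatocyte marker miRNAs, a check of the labelled tissue, summed to 396004 to 399104 CPM in females and 421241 to 466189 CPM in males, and none of them was at 0 in all libraries.

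The most abundant member, miR-221-3p, did not differ between the sexes beyond the spread of the replicates. In female libraries it reached 647, 655 and 668 CPM, and in male libraries 640, 685 and 607 CPM. The female values lay inside the male range. The means were 657 ± 10.4 CPM in female livers, against 644 ± 39 CPM in male livers (SD, n = 3 each), and the coefficient of variation over all 6 libraries was 4.07%. Female over male, edgeR's quasi-likelihood test gave a log2 fold change of 0.03 with an SE of 0.12 (Benjamini-Hochberg adjusted p = 0.935 over 370 miRNAs). Its 95% interval, from -0.24 to 0.29, corresponds to a fold of 0.849 to 1.23. Behind these values were 2343 to 3919 counts per female library and 2899 to 9554 per male library. miR-221-3p ranked 61st of the 370 tested miRNAs by mean CPM.

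Its partner arm, miR-221-5p, is the one usually discarded. It had 27.9, 23.5 and 28.5 CPM in females, against 22, 35 and 24.5 CPM in males. Male replicate 2 was the highest of the 6 and male replicate 1 the lowest, so the female values again fell within the male range. The means were 26.7 ± 2.72 CPM in female livers, against 27.2 ± 6.86 CPM in male livers (SD, n = 3 each). In edgeR the log2 fold change was -0.01 with an SE of 0.23 (adjusted p = 0.986) and a 95% interval from -0.52 to 0.49, a fold of 0.7 to 1.4.

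The other carrier of the shared seed, miR-222-3p, had 20.2, 14.9 and 18.8 CPM in females, against 16.1, 17.2 and 16.2 CPM in males. Female replicates 1 and 3 were the highest and female replicate 2 the lowest of the 6. The means were 18 ± 2.7 CPM in female livers, against 16.5 ± 0.616 CPM in male livers (SD, n = 3 each), from 54 to 122 counts per female library and 73 to 255 per male library. In edgeR the log2 fold change was 0.13 with an SE of 0.21 (adjusted p = 0.795). The 95% interval ran from -0.32 to 0.58, a fold of 0.799 to 1.5, so differences within that range remain compatible with these libraries.

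The rarest arm, miR-222-5p, fell below the filter on low counts and was not tested with the others. It had 7, 2 and 2 counts in female libraries and 4, 5 and 19 in male libraries. In CPM this was 0.76 ± 0.343 in females and 1.01 ± 0.324 in males (SD, n = 3 each), with overlapping values. From the summed counts, 11 in females and 28 in males, the female over male ratio was 0.784, with an exact 95% interval of 0.352 to 1.62 that covers counting error only. With no filter, edgeR gave a log2 fold change of -0.33 (SE 0.69; adjusted p = 0.888 over 1588 miRNAs).

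None of the 3 tested members passed the threshold of 0.05 on the adjusted p, and 0 of the 3 had an unadjusted p under 0.05 in edgeR. Over the other fits, which include DESeq2 and limma-voom, the smallest adjusted p of any member was 0.46. Among all 370 tested miRNAs 6.76% passed, 3.24% higher and 3.51% lower in females. The ranges of female and male CPM overlapped for all 4 members, while they did not overlap for 21.6% of tested miRNAs. In absolute size the log2 fold changes of miR-221-3p, miR-221-5p and miR-222-3p exceeded those of 8.92%, 4.32% and 32.7% of tested miRNAs. The whole pair summed to 702 ± 11.8 CPM in female livers, against 689 ± 45.3 CPM in male livers (SD, n = 3 each).

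**Figure D1:**
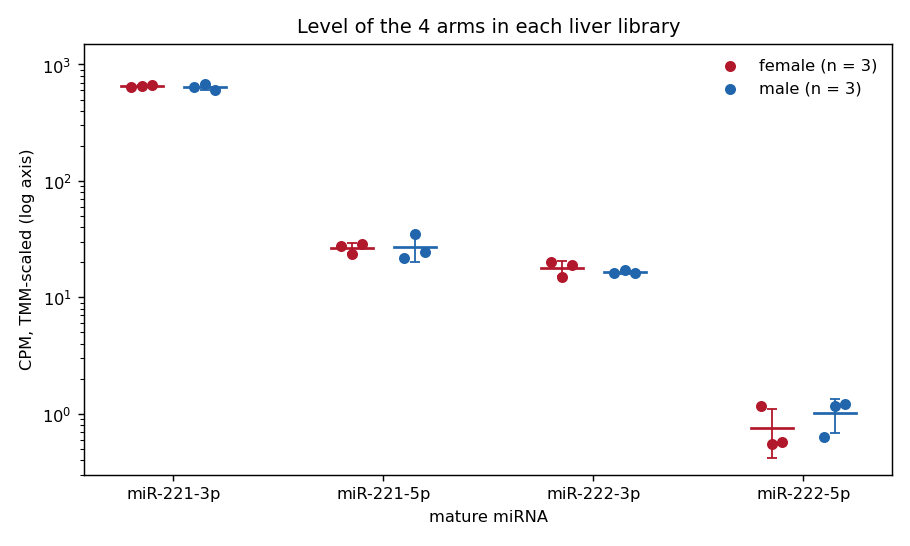
Level of each arm in TMM-scaled CPM on a log axis, with 1 point per library, horizontal lines at the means and bars of 1 SD (n = 3 each), females to the left of males. For every arm the points of the sexes overlap, and the arms keep the same order in both sexes, from 650 CPM for miR-221-3p to 0.883 CPM for miR-222-5p on average.

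**Figure D2:**
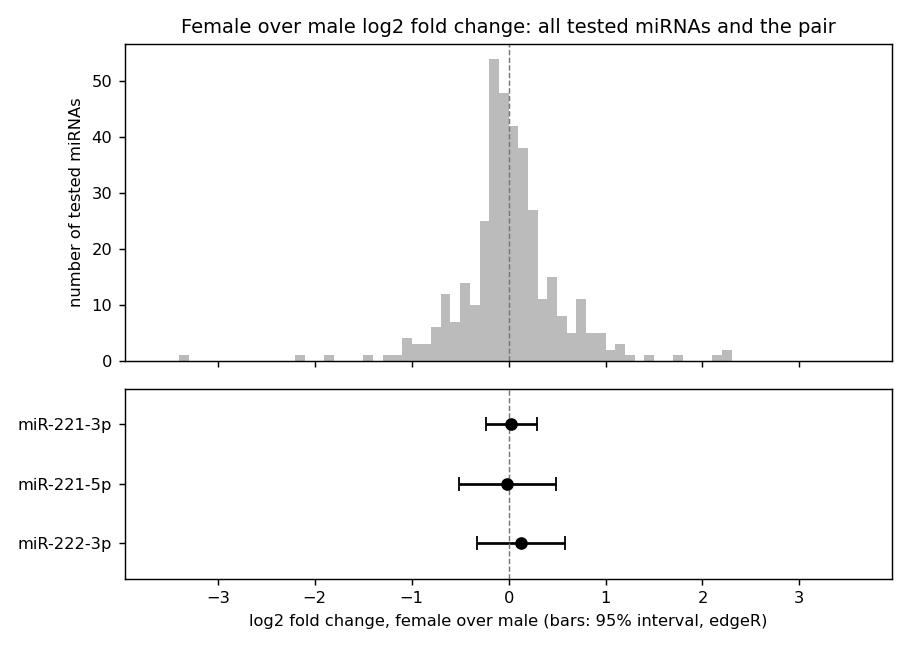
Female over male log2 fold changes from edgeR. The upper panel is a histogram of all 370 tested miRNAs, and the lower panel shows the 3 tested members as points with 95% intervals, each of which includes 0.

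Scaling mattered for the most abundant arm. As a plain share of each library, with no TMM factor, miR-221-3p had 681, 675 and 713 CPM in females and 630, 628 and 581 CPM in males, and the groups did not overlap. The means were then 690 ± 20.5 CPM in female livers, against 613 ± 27.6 CPM in male livers (SD, n = 3 each). The same non-overlap with higher female values was seen for 19.2% of tested miRNAs, and in either direction for 25.1%. With no TMM factor the log2 fold change of miR-221-3p was 0.17 (adjusted p = 0.46, edgeR) while the median of all tested miRNAs was 0.13, against -0.01 with TMM. With upper-quartile factors the median was -0.10 and the log2 fold change of miR-221-3p -0.06, while that of miR-221-5p was 0.13 with no TMM factor, so the sign of both arms turned with the scaling. Relative to the median of its own fit, miR-221-3p stood at 0.04 log2 units with TMM, 0.04 with no TMM factor and 0.04 with upper-quartile factors. In the same units miR-222-3p stood 0.14 above the median under each of these 3 scalings, and miR-221-5p within 0.01 of it. A change of scaling alone shifts all log2 fold changes nearly together, so these distances were nearly fixed in advance. With no filter, where 1588 miRNAs were tested, the distances were 0.14 for miR-221-3p, 0.11 for miR-221-5p and 0.24 for miR-222-3p.

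**Figure D3:**
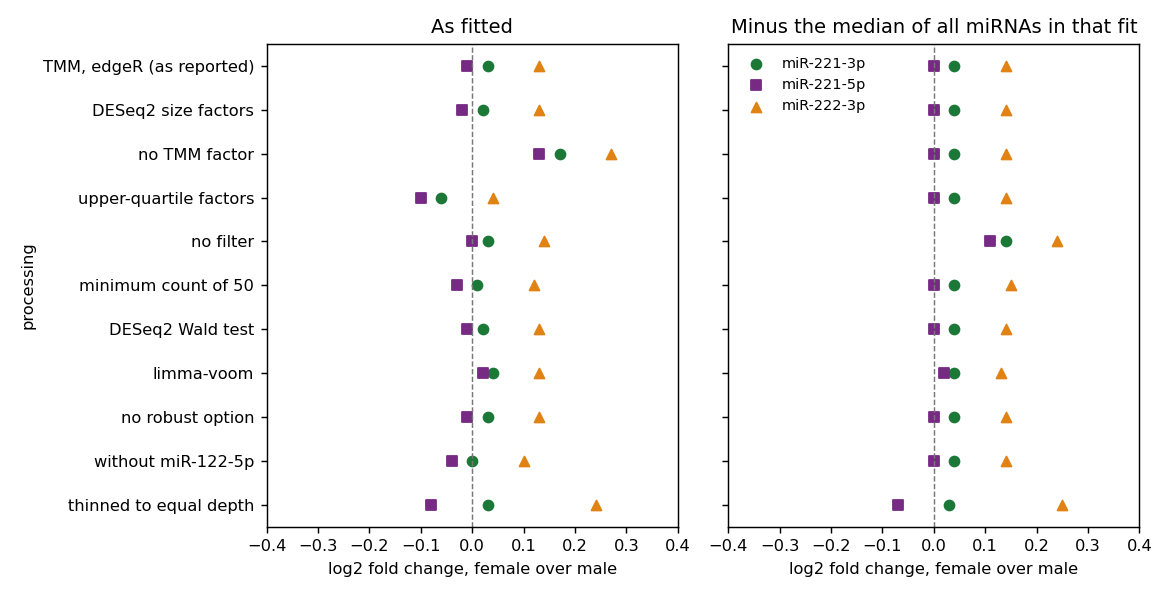
Female over male log2 fold changes of the 3 tested members under each processing that used all 6 libraries, as fitted (left) and after subtraction of the median of all miRNAs in that fit (right). With no TMM factor and with upper-quartile factors the members shift together in the left panel. In the right panel, where a shift shared by all miRNAs cancels, miR-221-3p lies at 0.04 under both.

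Although they are neighbours on the same strand, the hairpins had very unequal counts. miR-221-3p exceeded miR-222-3p by 38.1 ± 4.03 times (SD, n = 6), with 32.1, 43.9 and 35.5 times in females and 39.7, 39.7 and 37.5 times in males. Per base of deposited length the excess was 34.7 times, from 29.3 to 40. Of the reads of both 3p arms, miR-221-3p made up 97.4 ± 0.404% in females and 97.5 ± 0.0577% in males (SD, n = 3 each), and the Wilson 95% intervals of all libraries lay between 96.4 and 98.3%. The log2 ratio differed by -0.08 between females and males (exact two-sided permutation test, p = 0.6; adjusted p = 0.8 over 4 ratios; n = 3 each, where the smallest possible p is 0.1). Adapter ligation depends on sequence, so counts compare different miRNAs within a library less directly. Whether this or the shorter deposited position of miR-222-3p has a part in its lower count was not tested.

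In counts, each hairpin was biased to its 3p arm in every library. The 3p arm made up 96.1 ± 0.346% of Mir221 counts in females and 96 ± 0.808% in males (SD, n = 3 each). For Mir222 the shares were 96 ± 1.29% in females and 94.3 ± 1.66% in males, on 56 to 274 counts a library. The widest Wilson 95% interval of these, in male replicate 2, ran from 85.9 to 97.2%. miR-221-3p exceeded miR-221-5p 23.2, 27.9 and 23.4 times in females and 29.1, 19.6 and 24.8 times in males. Male replicate 2, where miR-221-5p was high, had the lowest of these ratios.

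**Figure D4:**
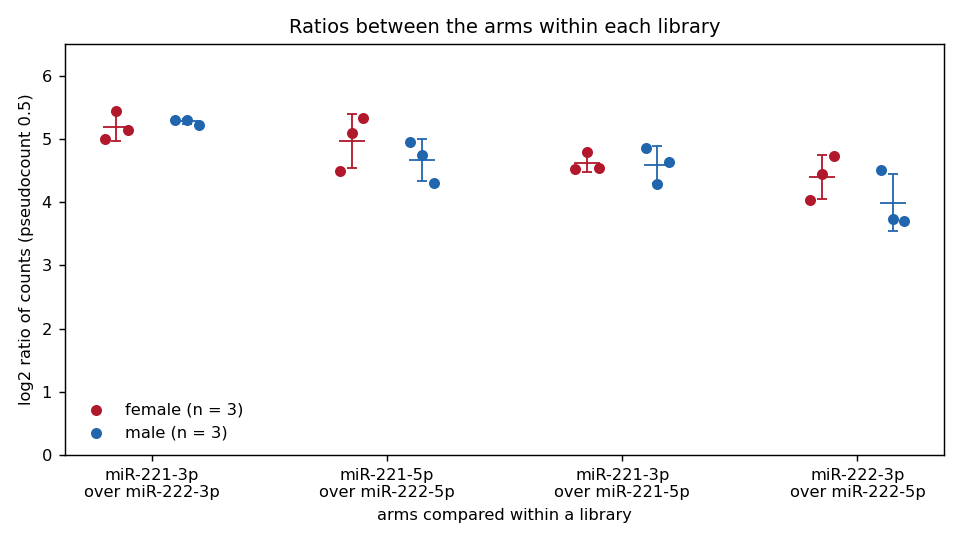
Log2 ratio of counts between arms within each library (pseudocount 0.5), with 1 point per library, horizontal marks at the means and bars of 1 SD (n = 3 each), females to the left of males. All ratios lie between 3.71 and 5.44, and the sexes overlap in all 4 comparisons.

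In the deposited counts the sexes overlapped in each of the 4 ratios between arms. The mean log2 ratio of miR-221-3p to miR-221-5p was 4.62 ± 0.15 in females and 4.59 ± 0.29 in males, and that of miR-222-3p to miR-222-5p 4.40 ± 0.35 in females and 3.99 ± 0.45 in males (SD, n = 3 each). For miR-221-5p to miR-222-5p the means were 4.97 ± 0.43 in females and 4.67 ± 0.33 in males. Exact two-sided permutation tests gave p = 1, 0.3 and 0.4 for these ratios, and adjusted p of 1, 0.8 and 0.8 over the 4. The ratios to miR-222-5p rest on few counts. With every library thinned to the depth of the shallowest, the difference between females and males was 1.11 for miR-222-3p over miR-222-5p, against 0.42 in the deposited counts, and 0.81 for miR-221-5p over miR-222-5p, against 0.30. Each then had an unadjusted p of 0.1 in the exact permutation test, the smallest possible. These values come from 1 random draw of the thinning. It left miR-222-5p with 3, 2 and 2 counts in female libraries and 3, 4 and 6 in male libraries.

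In order of level, miR-221-3p came first by far, followed by miR-221-5p, miR-222-3p and miR-222-5p. miR-221-5p, the minor arm of its hairpin, was above miR-222-3p, the major arm of the other, in 6 of 6 libraries, both in CPM and in CPM per base. The CPM ranges of these neighbours, 22 to 35 and 14.9 to 20.2, did not overlap. Divided by deposited length, 26 bases for miR-221-5p and 21 for miR-222-3p, they did, at 0.846 to 1.34 and 0.712 to 0.96. That overlap comes with the division by length. Next to miR-221-3p in level were miR-23b-3p, with 735 ± 36.8 CPM in female livers, against 675 ± 24 CPM in male livers, and miR-6390, with 498 ± 47 CPM in female livers, against 764 ± 141 CPM in male livers (SD, n = 3 each). Of these, miR-6390 was lower in females (log2 fold change -0.62, adjusted p = 0.0438, edgeR). It did not pass when any female library or male replicate 3 was left out, where the highest adjusted p was 0.176, nor with no TMM factor, with a minimum count of 50 or in limma-voom. The neighbours of miR-221-5p were miR-10b-5p (log2 fold change -0.51, adjusted p = 0.268) and miR-126b-5p (-0.05, adjusted p = 0.956), and those of miR-222-3p were miR-532-3p (0.03, adjusted p = 0.963) and miR-154-5p, with 23.4 ± 10.6 CPM in female livers, against 11.2 ± 2.87 CPM in male livers (adjusted p = 0.128, all edgeR).

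Across the 6 libraries the members followed each other only loosely. Pearson's r of log2 CPM was 0.68 between miR-221-3p and miR-221-5p, 0.26 between miR-221-3p and miR-222-3p, and 0.53 between miR-221-5p and miR-222-3p. Among 369 other miRNAs, miR-221-5p ranked 28th and miR-222-3p 109th in likeness to miR-221-3p. The miRNAs most like miR-221-3p were miR-542-5p (r = 0.97), miR-425-5p (0.93), miR-3968 (0.92), miR-342-3p (0.90) and miR-361-5p (0.89), of which miR-542-5p and miR-361-5p also lie on the X chromosome. Those most like miR-222-3p were miR-194-1-3p (0.95), miR-146a-5p (0.91), miR-335-3p (0.89), miR-33-3p (0.89) and miR-1981-3p (0.86). These values describe 6 libraries under 1 scaling but of unequal depth, from 3285249 to 16444674 counts, and carry no test. In these libraries miR-221-3p moved by no more than 0.1 log2 units from its mean. miR-222-3p rested on 54 to 255 counts a library, and the part of counting error in its values of r was not tested. Of the miRNAs most like it, miR-194-1-3p and miR-33-3p had mean levels of only 3.43 and 2 CPM.

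Females carry an additional X chromosome, and in a given cell X inactivation silences most genes of only 1 copy. Beside the pair, 36 miRNAs placed there in the table were tested, some of which, such as miR-19b-3p and miR-92a-3p, are also made from another locus. Of the 36, 1 passed as higher in females (miR-223-3p, a myeloid miRNA, log2 fold change 0.62) and 1 as lower (miR-741-3p, -3.36), and the median was 0.03. Over all 367 tested miRNAs other than the pair, 12 were higher and 13 lower, with a median of -0.01. The call of miR-223-3p was lost with upper-quartile factors, with a minimum count of 50, in limma-voom and after thinning to equal depth. It was also lost without female replicate 2, female replicate 3 or male replicate 3, where the highest adjusted p was 0.273 (edgeR). miR-741-3p had 1 to 3 counts a female library and 15 to 70 a male library, so it passed the filter through the males. Its call held in all 6 fits without a library. It had a result in only 9 of the 11 other fits, and passed in those 9. The nearest miRNAs of the table on the chromosome, miR-5617-3p at 1.72 and miR-1198-3p at 11.3 megabases, had no more than 6 counts in any library and were not tested.

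Other miRNAs linked to the same liver processes are read against the 6.76% of all tested miRNAs that passed. Of 18 tested miRNAs linked to liver growth, 1 was higher and 1 lower in females, and 16 did not pass (median log2 fold change -0.08). Of 23 linked to liver fibrosis, 1 was higher and 1 lower, and 21 did not pass (median -0.08). With no TMM factor both medians turned positive, at 0.05. In both lists the members that passed were the p53-induced miR-34a-5p, with 332 ± 18.1 CPM in female livers, against 96.8 ± 25.5 CPM in male livers, and miR-21a-5p, with 63251 ± 6565 CPM in female livers, against 95757 ± 8584 CPM in male livers (SD, n = 3 each). miR-21a-5p is known to rise in fibrosis, as the pair is, and its log2 fold change was -0.60 (adjusted p = 0.00169, edgeR).

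Markers of other liver cells give the setting of these levels, beside 48% positive log2 fold changes and 6.76% past the threshold among all tested miRNAs. In whole tissue, fewer cells of a type and less RNA per cell cannot be told apart. The 4 endothelial markers, none of which passed, summed to 68124 to 72328 CPM in females and 69177 to 76467 CPM in males, with a median log2 fold change of -0.01, which was 0.12 with no TMM factor (miR-126a-3p -0.07, miR-126a-5p 0.02, miR-126b-3p 0.12). All 9 tested stromal markers had negative log2 fold changes (median -0.24) and none passed with TMM scaling (miR-143-3p -0.21, miR-199a-3p -0.38, miR-199b-3p -0.35). With no TMM factor 8 of the 9 were negative, and with upper-quartile factors all 9, of which 1 passed. The stromal markers summed to 10278 to 13176 CPM in females and 14063 to 14802 CPM in males. The 8 leukocyte markers all had positive log2 fold changes (7 of 8 with upper-quartile factors), with a median of 0.29, and summed to 7009 to 7244 CPM in females and 5360 to 6823 CPM in males, and 1, miR-223-3p, was higher (0 with upper-quartile factors). The 5 erythroid markers had a median of 0.13 (miR-486a-5p 0.03, miR-144-5p 0.13, miR-144-3p 0.23) and the 6 biliary and epithelial markers -0.22, all 6 of them negative (4 of 6 with no TMM factor; miR-31-5p -0.13, miR-200a-3p -0.22, miR-200b-3p -0.26), with none past the threshold. Of the 7 tested hepatocyte markers 5 had positive log2 fold changes (median of the list 0.17), and 2 passed as higher, both arms of miR-802. The 2 negative ones were miR-122-5p (-0.21, adjusted p = 0.053, edgeR) and miR-148a-3p (-0.18). The summed CPM of the list was lower in every female library than in any male library. The same held for the sum over all 367 tested miRNAs other than the pair. That sum was 935680 to 969742 CPM in females and 1016293 to 1089370 CPM in males. The sums of the stromal markers (lower in females) and leukocyte markers (higher) did not overlap either. The part of scaling in these sums was not tested. With upper-quartile factors 4 of the 7 hepatocyte markers were positive, and 1 passed as lower. Several lists hold both arms of the same miRNA, such as miR-145a, miR-199a and miR-214 among the stromal markers. Markers of a list are therefore not independent of each other. Of 8 listed hepatocyte markers 7 had a row in the deposited table, and of 10 listed stromal markers 9 were tested. No marker of these lists that had a row was at 0 in all libraries. The part of these markers in the levels of the pair was not tested.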

How the data were processed

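Small RNA libraries from 6 mouse livers, prepared with Qiagen's miRNA library kit, per the labels' protocols, were compared by the sex in their labels; replicate numbers follow accession order and pair nothing. The values, as the authors deposited them, are estimated counts per mature miRNA with no normalisation. Partek, Bowtie and mm10 are named in the submitters' processing notes. How reads were trimmed, how multiply matching reads were treated and whether molecular identifiers were used is not stated in the labels. Adapter ligation depends on sequence, so counts compare a miRNA between libraries more directly than different miRNAs within a library.

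Of 2045 rows, 138 exact repeats were left out. Deposited stops lie 1 base past the RefSeq ends of miR-221-3p and miR-221-5p, so each arm was taken to end 1 base earlier. Counts were rounded (98.9% were whole, with no tolerance) and tested with edgeR 4.0.16 in R 4.3.3: quasi-likelihood test, TMM, robust option, filterByExpr (minimum count 10, minimum total 15), Benjamini-Hochberg adjustment over 370 miRNAs, threshold 0.05. The test was checked on simulated counts. Standard errors of edgeR fold changes were derived from the log2 fold change and the F statistic of its test, and the intervals use them. Wilson and exact intervals and limits for counts of 0 cover counting error only, since PCR copies are not independent molecules. Likeness used log2 CPM with a prior count of 2. Alternatives were other scalings and filters, DESeq2 1.42.0, limma-voom (limma 3.58.1), no robust option, miR-122-5p left out, thinning to equal depth and leaving out each library.

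The members, lists and tests were chosen with earlier results of these data known. Named miRNAs were the members, those with the same seed, the 5 most alike in pattern to each 3p arm, the neighbours in level and on the chromosome, and from each list at most 4 that passed the test, or the 3 most abundant where none did.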

Additional observations from a re-analysis of the deposited data

How the results depend on the processing

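No member passed the threshold in any of the 17 fits, in which the adjusted p of a member ranged from 0.46 to 0.999 (edgeR, DESeq2 or limma-voom). The log2 fold changes lay so near 0 that several changed sign. That of miR-221-3p was -0.0634 with upper-quartile factors and -0.0023 with miR-122-5p left out of the counts, and ranged from -0.0102 to 0.0795 when a library was left out. That of miR-221-5p was 0.13 with no TMM factor, 0.0007 with no filter and 0.0240 in limma-voom, and ranged from -0.16 to 0.20 without a library, where it was positive without female replicate 2 (0.0578) or male replicate 2 (0.2022). miR-222-3p kept its sign in all 16 alternatives (0.04 to 0.27 on all libraries, 0.02 to 0.23 without a library). The log2 ratio of mean CPM of miR-222-5p was -1.02 after thinning to equal depth, where few counts were left, and -0.85 to -0.21 without a library.

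Differences between the sexes in the log2 ratio ranged, without a library, from -0.207 to 0.014 for miR-221-3p over miR-222-3p, from -0.121 to 0.165 for miR-221-3p over miR-221-5p, from 0.120 to 0.540 for miR-221-5p over miR-222-5p and from 0.251 to 0.677 for miR-222-3p over miR-222-5p. After thinning, in 1 random draw, they were, in the same order, -0.220, 0.081, 0.813 and 1.114, with miR-222-5p at no more than 6 counts a library. The count of 25 miRNAs past the threshold was 13 with a minimum count of 50 and 15 after thinning, both with fewer miRNAs tested, and 9 to 32 without a library. It was 9, 10 and 12 when female replicate 2, female replicate 3 or male replicate 3 was left out. The median of the X chromosome list was 0.17 with no TMM factor, -0.063 with upper-quartile factors, -0.117 with no filter, -0.001 without miR-122-5p and 0.088 after thinning (0.01 to 0.05 without a library). With no TMM factor and upper-quartile factors the median was 0.051 and -0.182 for liver growth and 0.054 and -0.180 for liver fibrosis miRNAs; without a library they ranged from -0.10 to -0.004 and from -0.10 to -0.007. Scaling shifts all values together; for other changes the cause was not tested. No paired analysis was possible because the labels give no replicate numbers shared by the sexes. Depth limits miR-222-5p most.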
